A study of Homo sapiens with 18 samples.

Results

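Cells of 2 uveal melanoma lines, Mel92.1 and MP41, were compared in their response to UNC0642, a small-molecule inhibitor of the histone methyltransferase EHMT2 (G9a) and of its partner EHMT1 (GLP). For each gene, the log2 change with UNC0642 against DMSO in MP41 was subtracted from the same change in Mel92.1, and the result is called the line difference. It rests on 12 of the 18 RNA-seq libraries of the series, with 3 replicates each of Mel92.1 with DMSO, Mel92.1 with 1 μM UNC0642, MP41 with DMSO and MP41 with 1 μM UNC0642, all treated for 48 h. The 6 libraries labelled A366, another inhibitor of this enzyme, do not enter it. The labels give no engineered allele, and each line stands for 1 tumor. The study calls its replicates biological without saying how these libraries were kept apart, so the p-values measure the spread between these libraries.

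EHMT2 and EHMT1 form a complex that places mono- and dimethyl marks on lysine 9 of histone H3, a mark of repressed chromatin. The study itself found no direct binding between both proteins in Mel92.1 lysates. UNC0642 competes with the histone substrate, so the marks are lost while the protein can stay. Uveal melanoma arises from melanocytes of the eye, is driven mostly through the Gq signaling pathway, and keeps the pigment program of its cell of origin to a varying degree.

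Levels are given as CPM, the usual count of a gene relative to all counts of its library, here also scaled for the composition of the library. With DMSO, the lineage factor SOX10 averaged 609 CPM in Mel92.1 and 602 CPM in MP41, and the pigment granule protein PMEL averaged 8864 and 4434 CPM. The pigment enzyme DCT averaged 1.92 CPM in Mel92.1 and 327 CPM in MP41. Of the markers of other cells, CD3E (T cells) and CDH5 (endothelium) were at 0 in the mean of every group, and 6 epithelial markers together made up 7.24 to 8.49 unscaled CPM in Mel92.1 and 0.842 to 3.95 in MP41. The sums were 24.7 to 54.1 and 32.5 to 38.9 for 6 fibroblast markers, 24.96 to 34.1 and 145 to 205 for 7 leukocyte markers, mostly the lysosomal gene CD68, and 0 to 0.763 and 1.87 to 3.48 for 5 endothelial markers. Total counts ran from 23601156 in Mel92.1 UNC0642 replicate 1 to 62941462 in replicate 3 of that group. The 4 ribosomal RNA genes took 32.8%, 10.1% and 19.5% of the counts in Mel92.1 with UNC0642, 6.503% to 12.5% in Mel92.1 with DMSO and 3.31% to 5.14% in MP41. In Mel92.1 UNC0642 replicate 1, 34 genes that MP41 expresses and Mel92.1 with DMSO nearly lacks stood at 0.241% of their MP41 level. They stood at 0.0591% and 0.0808% in replicates 2 and 3 and at 0.0121% to 0.0299% with DMSO. The genes were chosen for a low level in Mel92.1 with DMSO, so the DMSO values are low by that choice. With the ribosomal RNA genes left out of the table, 58 genes passed for the line difference, with all 49 and all 8 genes described next among them. Whether the counts of these 34 genes are RNA from the other line, and the part of such RNA in the results, was not tested.

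Of 15464 genes tested, 57 passed an adjusted p of 0.05 for the line difference by the quasi-likelihood test of edgeR after Benjamini-Hochberg adjustment, which is 0.369% of all genes (1173 had an unadjusted p under 0.05). In 49 of them, 0.317% of all genes, the change was higher in Mel92.1 than in MP41, and in 8, or 0.0517%, it was lower. In Mel92.1 alone 209 genes passed (1.35%), of which 152 rose (0.983%) and 57 fell (0.369%). In MP41 alone 1 gene passed (0.00647%), with 680 at an unadjusted p under 0.05. It was SLC16A6, a transporter of the monocarboxylate family, named here after its values were seen, which fell from 339, 333 and 355 CPM to 233, 214 and 230.3 CPM in MP41. In Mel92.1 SLC16A6 went from 217, 197 and 194 CPM to 177, 181 and 198 CPM, with overlapping groups. Its line difference of 0.47 (SE 0.09) did not pass (adjusted p 0.0508 by the quasi-likelihood test of edgeR). No gene passed in both lines. The spread of each gene was estimated over both lines together, so the MP41 count also depends on the Mel92.1 libraries. Without Mel92.1 UNC0642 replicate 1, 265 genes passed in Mel92.1 alone and 16 in MP41 alone. With limma voom and sample weights, 549 and 200 passed. The count of 1 therefore does not show that MP41 hardly responded.

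The MP41 libraries with the same replicate number deviated together from their group means in all 3 pairs, and those of Mel92.1 in 1 pair of 3. MP41 DMSO replicate 1 with UNC0642 replicate 3, and DMSO replicate 3 with UNC0642 replicate 1, also did, so the pairing by number is uncertain. With a replicate block within MP41 only, an alternative chosen after seeing the data, 40 genes passed for the line difference by the quasi-likelihood test of edgeR, of which 34 were among the 49 and 3 among the 8, and 1 gene passed in MP41 alone. With a replicate block within each line, 26 genes passed for the line difference (21 of the 49 and 0 of the 8) and 0 in MP41 alone (550 at an unadjusted p under 0.05). Of the 22 named genes past the threshold, 9 were not past it with the block within MP41. They were PHGDH (adjusted p 0.0926 in that edgeR fit), HTN1 (0.139), LINC01366 (0.0611), SMC4 (0.053), BDH1 (0.0594), CD36 (0.0799), FZD7 (0.138), STAG3 (0.131) and MFSD12 (0.0647).

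The genes with a higher change were mostly genes that rose in Mel92.1. Of the 49, 48 also passed as rises in Mel92.1 alone, and 46 had an MP41 change of less than 0.2 on the log2 scale in either direction. In the median they changed by 0.94 in Mel92.1, against -0.01 in MP41. The replicates of both treatments did not overlap for all 49 in Mel92.1, where this held for 15% of all genes, and for 13 of the 49 in MP41, where it held for 18.4% of all genes. The Mel92.1 share follows from the test and is not read further. Without 1 library at a time, the number of genes past the threshold ran from 32 to 100. It was 87 without Mel92.1 DMSO replicate 1, 100 without Mel92.1 UNC0642 replicate 1, 33 without MP41 DMSO replicate 1, 32 without MP41 DMSO replicate 3, 32 without MP41 UNC0642 replicate 1, and 38 without Mel92.1 DMSO replicate 2. Without Mel92.1 UNC0642 replicate 1, all 57 stayed past it. Each of the 57 kept its sign in all of these fits. Of the 49, 25 overlap another annotated gene, 6 of them on the same strand, and of the 8, 4 do, 1 on the same strand. The division of reads is uncertain for those on the same strand. The study describes strand-specific libraries, so for the others it depends on whether the counts were made by strand. The share of all genes tested with such an overlap was not computed, so these counts are not read further.

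**Figure D1:**
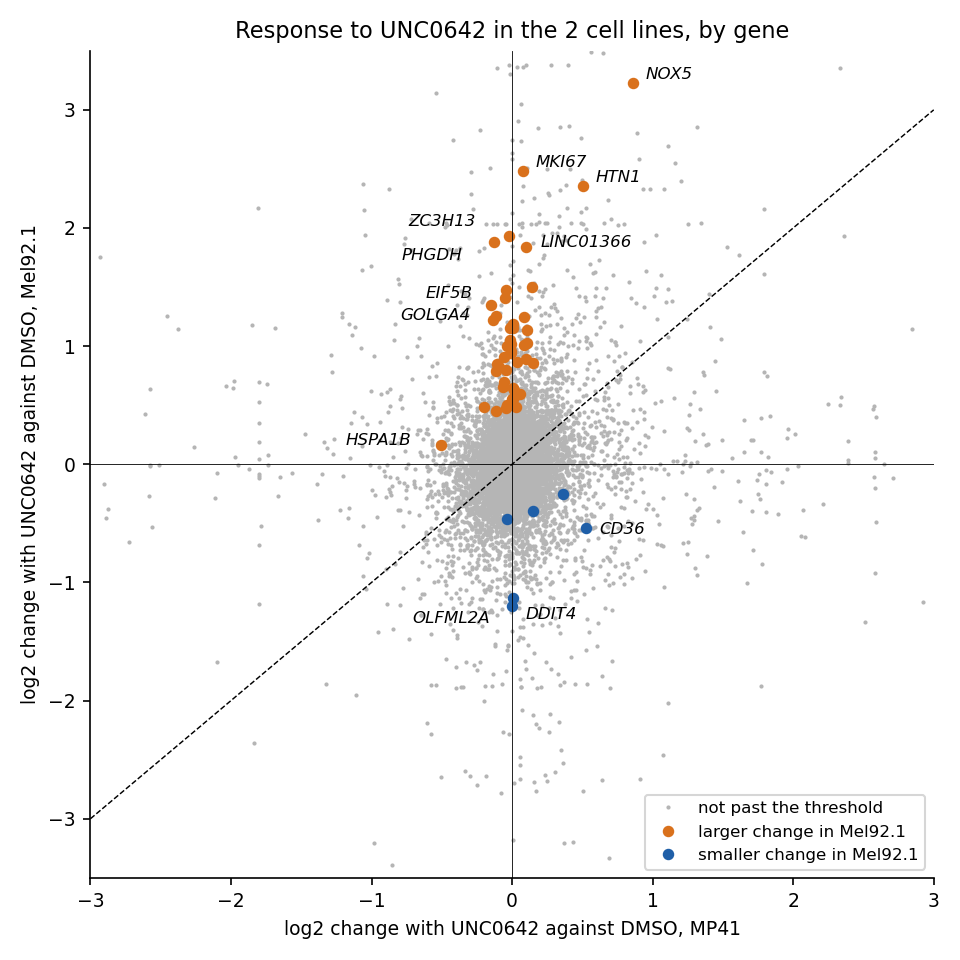
Log2 change with UNC0642 against DMSO of 13693 genes at 1 CPM or more in at least 1 group mean, with MP41 on the horizontal and Mel92.1 on the vertical axis and equal change on the dashed line. Most of the genes past the threshold for the line difference (orange, higher change in Mel92.1; blue, lower) lie near the line of no change in MP41, and 119 genes, 2 of them past the threshold, are outside the plotted range.

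Most of the 49 genes shared a feature that the test did not use, a high share of the base A in the coding sequence. Codons for lysine, glutamate and asparagine are rich in A, and many long coiled-coil and nuclear proteins are rich in these residues. To show it, the 60 coding bases with the most A are printed for 5 of the 49 genes and for DDIT4 and MFSD12, which had a lower change in Mel92.1. They were read from GENCODE release 29 transcripts (GRCh38), 5′ to 3′ on the coding strand, with A in capitals. They lie in exon 8 of 19 of ZC3H13 (chr13:46003192-46003251, minus strand), exon 5 of 24 of EIF5B (chr2:99363668-99363727, plus), exon 13 of 15 of MKI67 (chr10:128108992-128109051, minus), exons 9 and 10 of 19 of RBM25 (chr14:73099748-73103248 with the intron between, plus), exon 14 of 24 of GOLGA4 (chr3:37324717-37324776, plus), exon 3 of 3 of DDIT4 (chr10:72275119-72275178, plus) and exon 2 of 10 of MFSD12 (chr19:3551005-3551064, minus).
ZC3H13: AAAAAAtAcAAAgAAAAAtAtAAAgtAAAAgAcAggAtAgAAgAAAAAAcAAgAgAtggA
EIF5B: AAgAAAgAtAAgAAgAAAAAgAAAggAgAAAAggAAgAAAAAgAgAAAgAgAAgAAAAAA
MKI67: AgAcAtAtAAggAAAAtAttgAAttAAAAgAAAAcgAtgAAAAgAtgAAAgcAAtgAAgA
RBM25: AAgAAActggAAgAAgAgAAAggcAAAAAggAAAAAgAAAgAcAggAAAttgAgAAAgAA
GOLGA4: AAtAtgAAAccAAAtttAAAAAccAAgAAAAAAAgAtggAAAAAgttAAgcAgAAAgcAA
DDIT4: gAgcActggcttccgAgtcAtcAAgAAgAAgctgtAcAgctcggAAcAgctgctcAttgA
MFSD12: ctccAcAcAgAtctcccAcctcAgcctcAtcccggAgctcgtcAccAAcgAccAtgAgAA
The share of A in these windows was 66.7%, 71.7%, 58.3%, 61.7% and 61.7% in the 5 genes that rose, in the order shown. It was 28.3% in DDIT4 and 26.7% in MFSD12, the lowest shares among the 8 genes with a lower change. The richest windows of the 8 had a median of 38.3% A, and those of CD36 and STAG3 reached 51.7%. Over the 49 genes, 48 of which have an annotated coding sequence, the richest window had a median of 61.7% A, against 43.3% over all genes tested. A longer coding sequence offers more windows, and the median coding length was 3658.5 bases in the 48 genes and 1389 in all genes tested. The part of coding length in this gap was not tested.

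Over the whole coding sequence, the median share of A was 36.7% in the 48 genes (quartiles 34.9% and 39.2%). It was 25.6% (21.3% and 30.0%) in the 13780 genes tested that have a coding sequence, and 22.3% in the 8 genes with a lower change. The coding sequences of the 48 were also long, with 3000 bases or more in 29 of them (60.4%, against 14.5% of all). Of the 48, 40 lay in the highest decile of genes by share of A, which begins at a share of 33.2%. The 8 below it were CTSL, HSP90AA1, HSPA1B, HTN1, IDH1, NEFH, NOX5 and PHGDH.

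Over all genes, the median change in Mel92.1 rose with the share of A, from -0.07 in the lowest decile to 0.02 in the ninth and 0.10 in the highest. In MP41 it went from 0.03 in the lowest decile to -0.01 in the highest. Within the highest decile, the 230 genes with 3000 coding bases or more had a median change of 0.27 in Mel92.1 and -0.01 in MP41, and 28 of them were past the threshold for the line difference. The 1148 shorter genes had a median of 0.08 in Mel92.1, and 12 were past it. Zinc finger genes of the ZNF family were an exception in direction. The 174 of them in the highest decile had a median change of -0.19 in Mel92.1 and -0.10 in MP41, and the other 270 had -0.09 and -0.02.

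By library, the 230 long genes were not higher in every treated Mel92.1 library than in every DMSO library. As a median difference from the DMSO mean of the line, they stood at 0.25, -0.07 and -0.17 with DMSO and at 0.19, 0.21 and 0.46 with UNC0642, so that DMSO replicate 1 was above the treated replicates 1 and 2. In MP41 the 6 values ran from -0.03 to 0.03. Genes rich in A were also lower in Mel92.1 than in MP41 with DMSO, with a median log2 difference of -0.45 in the highest decile and 0.46 in the lowest. Of the 49 genes, 47 had a lower DMSO mean in Mel92.1 (50.7% of all genes tested did), with a median ratio to MP41 of 0.323. With UNC0642 the median ratio was 0.572. The Mel92.1 DMSO level enters the line difference, so this is a description and no separate result. With an offset for the share of A and the coding length, an alternative chosen after seeing the data, 27 genes passed, of which 17 were among the 49 and 4 among the 8. NOX5 (2.53), MKI67 (2.30), ZC3H13 (1.86) and EIF5B (1.19) passed with it. By the edgeR fit with this offset, CENPE (0.72, adjusted p 0.14), ANKRD12 (1.24, 0.156), SMC4 (0.35, 0.526), CLSPN (0.62, 0.314) and HTN1 (1.75, 0.0937) did not. Without it, their line differences were 1.15, 1.52, 0.55, 0.64 and 1.85, so for these genes a lost call does not show that the difference was gone. HMGN5 and PSIP1 had 1.17 and 0.46 without the offset and 0.11 and 0.06 with it (adjusted p 0.895 for each by the same edgeR fit). The part of the share of A in the line differences was not tested. With transcript length and GC content as the offset instead, also chosen after seeing the data, 54 genes passed, of which 30 were among the 49 and 5 among the 8. CENPE (1.18), CLSPN (0.71) and HMGN5 (1.12) passed with that offset, and ANKRD12 (1.57), SMC4 (0.59), HTN1 (1.68) and PSIP1 (0.47) did not.

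**Figure D2:**
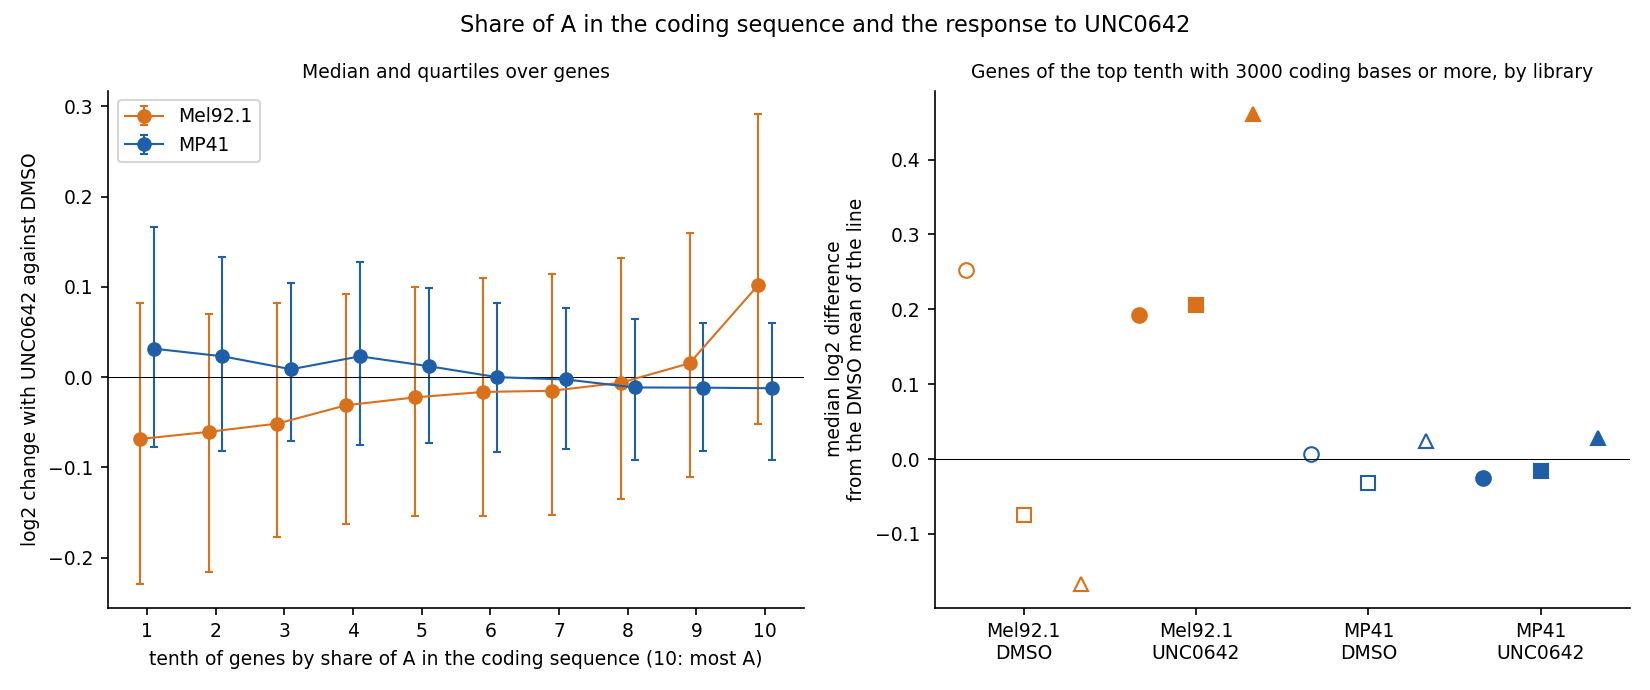
Left, median log2 change with UNC0642 in each decile of genes by the share of A in the coding sequence (bars, quartiles over genes; orange, Mel92.1; blue, MP41), which reaches 0.10 in the highest decile in Mel92.1 and -0.01 in MP41. Right, median log2 difference from the DMSO mean of the line over the 230 genes of the highest decile with 3000 coding bases or more, 1 point per library (open, DMSO; filled, UNC0642; circle, square and triangle, replicates 1, 2 and 3), where Mel92.1 DMSO replicate 1 at 0.25 lies within the treated range.

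ZC3H13, a zinc finger protein of the complex that writes N6-methyladenosine on RNA, had the line difference with the lowest p. In Mel92.1 it was at 76.5, 78.1 and 76.7 CPM with DMSO and 323, 275 and 284 CPM with UNC0642. In MP41 it was at 1013, 981 and 1042 CPM with DMSO and 1026, 965 and 996 CPM with UNC0642. The Mel92.1 groups were far apart, the MP41 groups overlapped, and the treated Mel92.1 libraries stayed below every MP41 library. The log2 change was 1.93 (SE 0.06) in Mel92.1 and -0.02 (SE 0.06) in MP41, and the line difference was 1.95 (SE 0.09, adjusted p 1.69e-07 by the quasi-likelihood test of edgeR). Read as a share of MP41 RNA, the level of the MP41-specific genes in the treated Mel92.1 libraries corresponds to 2.44, 0.598 and 0.818 CPM of ZC3H13. The part of such RNA in the rise was not tested.

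EIF5B, a GTPase that joins the ribosomal subunits at the start of translation, was at 28.5, 34.1 and 36.3 CPM with DMSO and 85.6, 89.2 and 86.9 CPM with UNC0642 in Mel92.1. In MP41 it was at 235, 235 and 240.1 CPM with DMSO and 225, 231 and 229 CPM with UNC0642. The Mel92.1 groups were apart by more than their spread, and in MP41 the treated libraries lay just below those with DMSO. The line difference was 1.46 (SE 0.11, adjusted p 3.88e-05 by the quasi-likelihood test of edgeR).

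MKI67 encodes Ki-67, the protein that coats mitotic chromosomes and marks dividing cells, and had the largest positive line difference of the 49. It was at 16.3, 13.0 and 12.2 CPM with DMSO and 67.1, 70.1 and 94.0 CPM with UNC0642 in Mel92.1 and at 431, 377 and 438 CPM with DMSO and 483, 374 and 457 CPM with UNC0642 in MP41. All treated Mel92.1 libraries were above those with DMSO, and the MP41 groups overlapped. The line difference was 2.40 (SE 0.20, adjusted p 0.000123 by the quasi-likelihood test of edgeR).

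NOX5, a calcium-regulated NADPH oxidase, moved in both lines. It went from 0.427, 0.423 and 0.460 CPM to 4.29, 4.20 and 3.88 CPM in Mel92.1, and from 7.06, 7.28 and 9.09 CPM to 14.4, 13.4 and 14.7 CPM in MP41. The groups did not overlap in either line. The log2 change was 3.23 (SE 0.19) in Mel92.1 and 0.86 (SE 0.16, adjusted p 0.14 by the quasi-likelihood test of edgeR) in MP41, and the line difference was 2.37 (95% interval 1.84 to 2.90, adjusted p 0.000739). NOX5 overlaps SPESP1 on the same strand, and SPESP1 was at 0 in all 12 libraries.

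GOLGA4 and AKAP9 are long coiled-coil proteins, the first of the trans-Golgi and the second a scaffold at the centrosome and Golgi. GOLGA4 went from 16.8, 14.7 and 14.9 CPM to 32.0, 37.4 and 40.8 CPM in Mel92.1 and from 206, 203 and 209.5 CPM to 189.6, 176 and 205 CPM in MP41, a line difference of 1.37 (SE 0.13). AKAP9 went from 8.66, 9.96 and 8.13 CPM to 14.9, 23.8 and 28.1 CPM in Mel92.1 and from 218, 214 and 221 CPM to 192, 191 and 205 CPM in MP41, a line difference of 1.5 (SE 0.22). Both rose in Mel92.1, and in MP41 the treated libraries of AKAP9 were all below those with DMSO, a change of -0.15 that did not pass. ANKRD12, an ankyrin repeat protein of the nucleus, went from 8.601, 10.7 and 9.57 CPM to 33.2, 25.9 and 22.0 CPM in Mel92.1 and from 118, 112 and 119 CPM to 110.3, 106 and 123 CPM in MP41, a line difference of 1.52 (SE 0.18). In all 3 genes the treated level in Mel92.1 was below every MP41 library.

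HTN1, a histatin known from saliva, went from 1.83, 1.82 and 2.17 CPM to 16.4, 7.58 and 7.12 CPM in Mel92.1 and from 43.9, 42.2 and 38.0 CPM to 55.3, 61.0 and 59.8 CPM in MP41. Its close paralog HTN3 was at 0 in every Mel92.1 library and at 18.6 to 24.2 CPM in MP41, so the split of reads between the paralogs is uncertain there. The noncoding RNA LINC01366 went from 1.40, 1.61 and 1.51 CPM to 6.76, 4.58 and 5.01 CPM in Mel92.1 and from 8.33, 8.86 and 9.48 CPM to 10.7, 10.5 and 7.44 CPM in MP41. Neither gene had overlapping groups in Mel92.1, and their line differences were 1.85 (SE 0.35) and 1.74 (SE 0.29). PHGDH, the first enzyme of serine synthesis, went from 0.203, 0.106 and 0.153 CPM to 0.785, 0.331 and 0.727 CPM in Mel92.1, which rests on 10, 4 and 6 counts with DMSO and on 13, 13 and 39 with UNC0642. In MP41 it was at 110.3 to 129 CPM in all 6 libraries. Read as a share of MP41 RNA, the level of the MP41-specific genes corresponds to 0.302, 0.0740 and 0.101 CPM of PHGDH in the treated Mel92.1 libraries. The line difference was 2.02 (SE 0.35). Over 27 alternative fits, HTN1 passed in 10, LINC01366 in 16 and PHGDH in 12, against 26 for each of ZC3H13, EIF5B, MKI67 and NOX5.

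**Figure D3:**
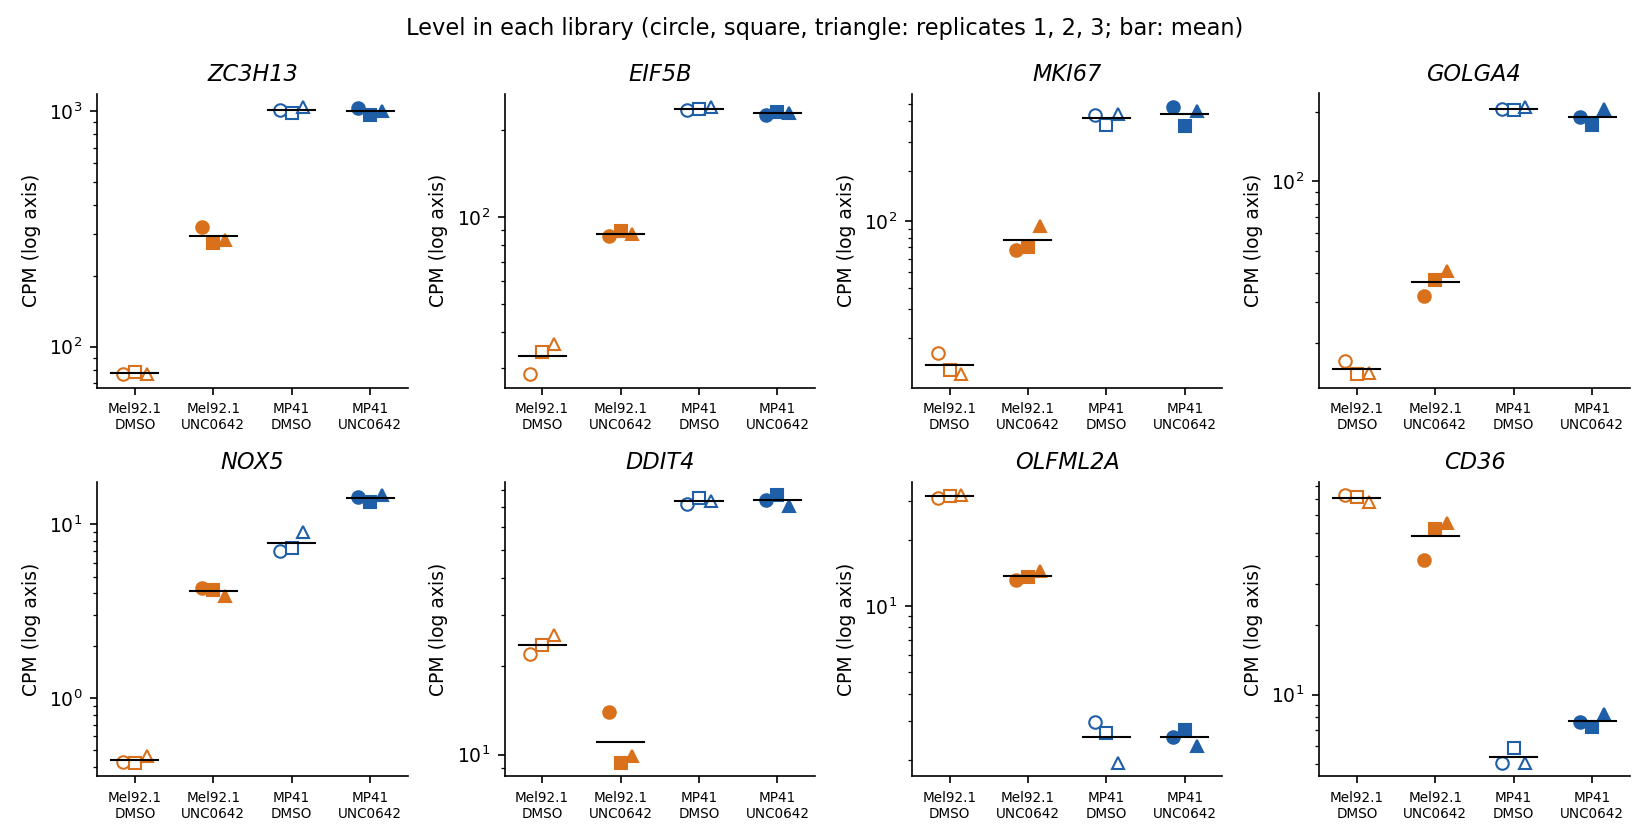
CPM of 8 genes in each of the 12 libraries (log axis; orange, Mel92.1; blue, MP41; open, DMSO; filled, UNC0642; circle, square and triangle, replicates 1, 2 and 3; bar, mean of 3). ZC3H13, EIF5B, MKI67 and GOLGA4 are higher with UNC0642 in Mel92.1 and remain below MP41, NOX5 is higher with UNC0642 in both lines, and DDIT4, OLFML2A and CD36 are lower with UNC0642 in Mel92.1.

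The other genes of the 49, named here after their values were seen, fall into several roles, which were not tested for enrichment. Among factors that act on pre-mRNA, RBM25 went from 24.3, 24.5 and 23.1 CPM to 51.1, 61.7 and 57.6 CPM in Mel92.1 (line difference 1.17, SE 0.10), LUC7L3 from 81.4, 87.6 and 91.5 CPM to 195, 171 and 159.7 CPM (0.92, SE 0.11), and the cyclophilin PPIG from 9.60, 12.5 and 11 CPM to 37.4, 30.0 and 26.5 CPM (1.36, SE 0.18). SREK1, PRPF38B, NSRP1 and PNN, also of splicing, had line differences of 0.94, 0.83, 1.04 and 0.55. Among proteins of chromatin, ATRX, a remodeler that binds trimethylated lysine 9, went from 31.9, 29.5 and 26.7 CPM to 50.7, 54.2 and 50.6 CPM in Mel92.1 and from 85.9, 89.1 and 89.5 CPM to 79.7, 82.1 and 86.1 CPM in MP41 (0.91, SE 0.11). The bromodomain proteins BAZ2B and BAZ1A and the nucleosome-binding HMGN5 had line differences of 1.07, 0.54 and 1.17. That of HMGN5 was 0.11 with the offset for the share of A and the coding length. KTN1, GOLGB1 and the kinesin KIF21A, all with long coiled coils, had 0.96, 1.36 and 0.72. IDH1, the cytosolic isocitrate dehydrogenase, was higher in Mel92.1 than in MP41 to begin with, and went from 734, 732 and 716 CPM to 1074, 1084 and 1133 CPM there, against 335, 345 and 345 CPM and 343, 359 and 354 CPM in MP41 (0.55, SE 0.07).

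HSPA1B, an inducible heat shock protein, was the 1 gene of the 49 that did not pass in Mel92.1 alone. It was at 125, 127 and 134 CPM with DMSO and 155, 137 and 139 CPM with UNC0642 in Mel92.1. In MP41 it was at 54.2, 50.9 and 52.7 CPM with DMSO and 40.0, 35.1 and 36.1 CPM with UNC0642. The groups did not overlap in either line, and the larger of both changes was the one in MP41 (-0.51, against 0.16 in Mel92.1). Neither passed in its own line (adjusted p 0.0817 in MP41 and 0.409 in Mel92.1 by the quasi-likelihood test of edgeR), and their difference of 0.66 did (adjusted p 0.0106). HSPA1A, a near-identical gene, was at 5.30 to 14.8 CPM, so the split of reads between both is uncertain.

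Of the 8 genes with a lower change, 5 fell in Mel92.1. DDIT4 (REDD1), a stress-induced inhibitor of mTOR complex 1, was at 22.0, 23.6 and 25.6 CPM with DMSO and 13.9, 9.39 and 9.87 CPM with UNC0642 in Mel92.1. In MP41 it was at 71.5, 75.1 and 73.2 CPM with DMSO and 73.9, 76.7 and 70.5 CPM with UNC0642. The Mel92.1 groups did not overlap, the MP41 groups did, and the line difference was -1.14 (SE 0.17, adjusted p 0.00794 by the quasi-likelihood test of edgeR). OLFML2A, a secreted protein of the olfactomedin family, was at 30.8, 31.7 and 31.8 CPM with DMSO and 13.1, 13.5 and 14.4 CPM with UNC0642 in Mel92.1 and at 2.99, 2.66 and 1.94 CPM with DMSO and 2.54, 2.74 and 2.32 CPM with UNC0642 in MP41, with a line difference of -1.20 (SE 0.21). MFSD12, a transporter of the melanosome, went from 347, 365 and 388 CPM to 261, 271 and 264 CPM in Mel92.1 and was at 1034 to 1104 CPM in MP41, with a line difference of -0.43 (SE 0.07). STAG3, a cohesin subunit of meiosis, went from 19.97, 19.8 and 20.3 CPM to 16.7, 14.4 and 14.8 CPM in Mel92.1 and from 77.1, 70.4 and 76.3 CPM to 83.4, 82.5 and 82.0 CPM in MP41. Its line difference of -0.55 (SE 0.10) passed in 8 of 27 alternative fits. Over the same fits, MFSD12 and FZD7 passed in 12 each, OLFML2A in 14, BDH1 in 16, CD36 in 18, CYBRD1 in 20 and DDIT4 in 25.

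CD36, a scavenger receptor that takes up fatty acids, went from 72.8, 71.6 and 67.9 CPM to 38.3, 52.3 and 55.1 CPM in Mel92.1 and from 5.08, 5.90 and 5.08 CPM to 7.63, 7.27 and 8.25 CPM in MP41. The groups did not overlap in either line and the directions were opposite. The change was -0.54 in Mel92.1 (adjusted p 0.048 by the quasi-likelihood test of edgeR) and 0.53 in MP41 (adjusted p 0.565), and the line difference was -1.07 (SE 0.18). FZD7, a Wnt receptor, had the same order of groups, with 34.5, 32.2 and 29.5 CPM and 24.0, 28.5 and 27.9 CPM in Mel92.1 and 59.7, 62.5 and 62.5 CPM and 78.4, 78.8 and 79.9 CPM in MP41. It passed in neither line, and its line difference was -0.61 (SE 0.12).

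CYBRD1, a ferric reductase, and BDH1, an enzyme of ketone body use, rest on few counts in MP41. CYBRD1 had 0 counts in the 3 MP41 libraries with DMSO and 8, 22 and 7 with UNC0642, at least 4.02-fold higher with the floor at 3 counts per library. BDH1 had 0 with DMSO and 4, 5 and 4 with UNC0642, at least 1.44-fold higher. In Mel92.1 the groups of both genes overlapped, with CYBRD1 at 12.4 to 16.9 CPM and BDH1 at 24.5 to 32.3 CPM. In the treated MP41 libraries, 26 genes that Mel92.1 expresses and MP41 with DMSO nearly lacks stood at 0.0514%, 0.0892% and 0.0426% of their Mel92.1 level. With DMSO they stood at 0.0162% to 0.0273%, which is low by the choice of these genes. Read as a share of Mel92.1 RNA, the treated level corresponds to 0.00618 to 0.0129 CPM of CYBRD1, against the measured 0.177, 0.456 and 0.165 CPM. For BDH1 it corresponds to 0.0124 to 0.0261 CPM, against 0.0885, 0.104 and 0.0945 CPM. BDH1 itself meets the rule for these 26 genes, so its own counts enter the level it is set against. The part of Mel92.1 RNA in the counts of both genes was not tested.

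Promoters were searched on both strands for motifs of cell cycle and stress genes. RefSeq promoters (GRCh38.p14, 250 bases before to 50 after the start) were found for 43 of the 49 and for 7 of the 8 genes. CCAAT, the box bound by NF-Y, was in 20 of the 43 (46.5%) and in 4 of the 7 (57.1%), against 34.6% both of all 35116 promoters and of the 16349 promoters of genes tested. TTTGAA, the cell cycle genes homology region, was in 7 of the 43 (16.3%) and in 0 of the 7, against 15.2% of all promoters and 10.9% of those of genes tested. The amino acid response element, TGATGNAAT, was in 0 of the 43 and in 0 of the 7, against 0.991% and 0.563%. The 250 bases before the start are printed for MKI67 (chr10:128126424-128126673, minus strand) and DDIT4 (chr10:72273674-72273923, plus), which moved in opposite directions in Mel92.1, with matches to CCAAT and TTTGAA on either strand in capitals (CCAAT reads ATTGG on the other strand).
MKI67: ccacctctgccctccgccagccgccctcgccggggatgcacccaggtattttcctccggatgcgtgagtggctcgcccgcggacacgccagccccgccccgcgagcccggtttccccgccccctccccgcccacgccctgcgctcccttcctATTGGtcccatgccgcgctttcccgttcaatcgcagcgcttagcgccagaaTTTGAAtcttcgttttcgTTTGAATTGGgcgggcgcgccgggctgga
DDIT4: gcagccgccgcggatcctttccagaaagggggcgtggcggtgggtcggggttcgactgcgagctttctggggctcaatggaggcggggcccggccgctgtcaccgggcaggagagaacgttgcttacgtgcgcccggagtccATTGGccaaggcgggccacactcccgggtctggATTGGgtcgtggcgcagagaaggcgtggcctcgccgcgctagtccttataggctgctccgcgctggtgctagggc
MKI67 had 2 CCAAT and 2 TTTGAA matches, with one of each overlapping, and DDIT4 had 2 CCAAT and 0 TTTGAA matches. A match describes letters in this window.

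Pathway lists, chosen with earlier results of these data known, were described by their counts and their median, beside -0.02 for the median line difference of all genes tested. Of these genes, 644 (4.16%) were higher and 529 (3.42%) lower at an unadjusted p under 0.05 by the quasi-likelihood test of edgeR, and the unadjusted counts of the lists are to be read against those shares. Of 53 mitosis genes, 4 were higher and 0 lower, with a median of -0.02. The 4 were MKI67, the kinetochore kinesin CENPE, the kinetochore protein CENPF and the condensin subunit SMC4. CENPE went from 5.14, 4.97 and 4.27 CPM to 9.12, 12.1 and 10.5 CPM in Mel92.1 and from 129.8, 122 and 132 CPM to 121, 125 and 140.1 CPM in MP41 (1.15, 95% interval 0.83 to 1.47). CENPF went from 73.4, 51.6 and 53.1 CPM to 126, 125 and 144 CPM in Mel92.1 and from 650.0, 625 and 646 CPM to 627, 631 and 641 CPM in MP41 (1.17, 0.83 to 1.5). SMC4 had a line difference of 0.55 (0.35 to 0.74). The Mel92.1 groups were apart for all 4 and the MP41 groups overlapped. The 25 mitosis genes in the highest decile by share of A, these 4 among them, had a median change of 0.21 in Mel92.1, and the other 28 had -0.03. Of 46 DNA replication genes, 1 was higher, the checkpoint adaptor CLSPN (0.64, SE 0.10), and 0 lower, with 1 higher and 8 lower at an unadjusted p under 0.05 by the quasi-likelihood test of edgeR and a median of -0.10.

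Targets of ATF4, the transcription factor of amino acid shortage and stress of the endoplasmic reticulum, had 1 member higher (PHGDH) and 1 lower (DDIT4) of 37. In Mel92.1 alone 5 fell and 1 rose, and in MP41 alone 0 passed. The median change was -0.20 in Mel92.1 and -0.18 in MP41. CHAC1, which degrades glutathione, went from 21.2, 24.9 and 28.7 CPM to 2.96, 8.29 and 7.51 CPM in Mel92.1 and from 16.3, 16.2 and 14.2 CPM to 6.79, 7.44 and 7.37 CPM in MP41. The groups did not overlap in either line, and the line difference of -0.84 (95% interval -1.62 to -0.06) did not pass (adjusted p 0.63 by the quasi-likelihood test of edgeR). SLC7A11, the cystine transporter, and SESN2, a leucine sensor, fell in Mel92.1 and had line differences of -0.62 and -0.39 that did not pass (adjusted p 0.502 and 0.572 by the edgeR fit). Of 22 genes of chaperones and the unfolded protein response, 0 passed for the line difference by the quasi-likelihood test of edgeR (0 higher and 1 lower at an unadjusted p under 0.05), and their median change was -0.15 in Mel92.1 and -0.14 in MP41. HSPA5 (BiP), the main chaperone of the endoplasmic reticulum, was at 929, 855 and 841 CPM with DMSO and 762, 714 and 755 CPM with UNC0642 in Mel92.1 and at 912, 952 and 914 CPM with DMSO and 710.3, 772 and 692 CPM with UNC0642 in MP41. The groups did not overlap in either line, and the line difference was 0.12 (95% interval -0.06 to 0.30).

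**Figure D4:**
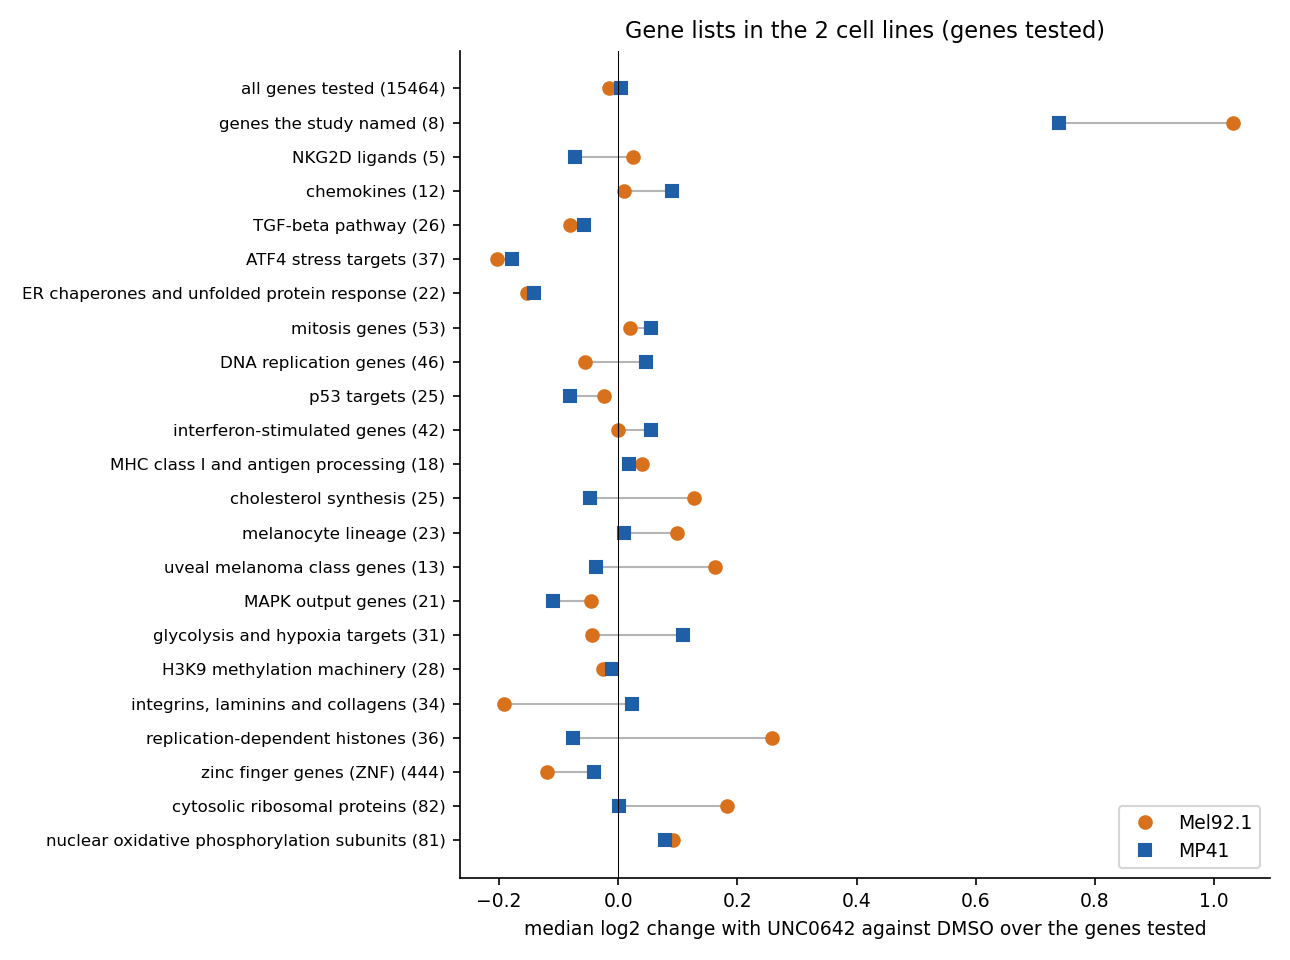
Median log2 change with UNC0642 against DMSO over the genes tested of each list, whose number is in brackets (orange circles, Mel92.1; blue squares, MP41). ATF4 targets lie at -0.20 and -0.18 in Mel92.1 and MP41 and chaperones at -0.15 and -0.14, while replication-dependent histones lie at 0.26 and -0.08 and cytosolic ribosomal proteins at 0.18 and 0.00.

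Of the 8 genes that the study names as raised by both inhibitors, NOX5 passed for the line difference. They were chosen on these libraries, so their direction here is not independent evidence. Apart from these libraries, the study measured the candidates by RT-qPCR in both lines and AZGP1 by immunoblot. It reports AZGP1 as the gene raised most consistently. AZGP1, a secreted glycoprotein with a fold like that of MHC class I, went from 0.590, 1.16 and 0.870 CPM to 7.49, 4.22 and 3.80 CPM in Mel92.1 and from 2.88, 2.96 and 2.46 CPM to 6.41, 6.24 and 5.86 CPM in MP41. The groups did not overlap in either line. The change was 2.55 (SE 0.32) in Mel92.1 and 1.16 (SE 0.30) in MP41, and their difference of 1.40 (95% interval 0.46 to 2.33) did not pass over all genes (adjusted p 0.368 by the quasi-likelihood test of edgeR). BANCR, a noncoding RNA, went from 0.590, 0.476 and 0.921 CPM to 2.72, 3.46 and 2.22 CPM and from 7.64, 9.69 and 6.95 CPM to 13.4, 14.2 and 12.1 CPM, also without overlap, and its difference was 1.37 (0.61 to 2.13, adjusted p 0.21 by the same edgeR test). SLAMF7, a receptor of immune cells, rose in Mel92.1 from 29.8, 30.7 and 30.1 CPM to 56.9, 64.2 and 67.0 CPM and was at 0.648 to 1.91 CPM in MP41, where the groups overlapped. Its difference was 0.35 (-0.38 to 1.07). For SERPINA1, BST2, KRT23 and LINC00426 the differences were 0.27 (-0.98 to 1.52), 0.15 (-1.08 to 1.39), -0.16 (-1.25 to 0.93) and -0.03 (-1.09 to 1.02), intervals wide enough to hold no difference and a difference of 0.9 on the log2 scale. In Mel92.1 UNC0642 replicate 1, SERPINA1 (1.03 CPM), BST2 (0.724 CPM) and LINC00426 (4.41 CPM) were lower than in the other two treated libraries.

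**Figure D5:**
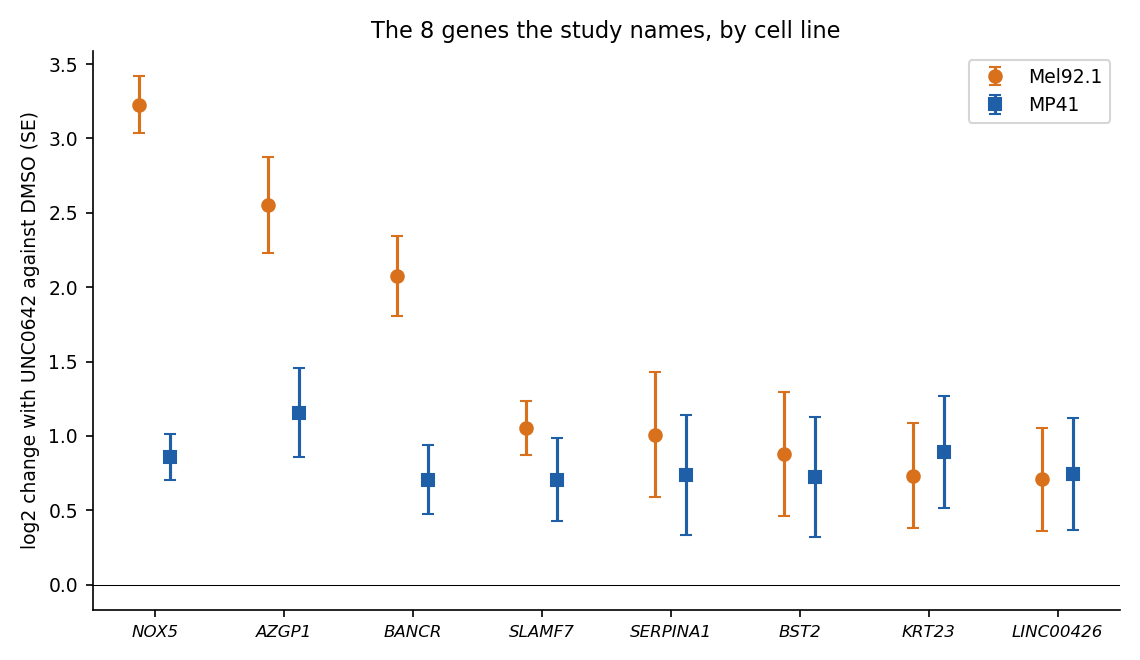
Log2 change with UNC0642 against DMSO of the 8 genes the study names (orange circles, Mel92.1; blue squares, MP41; bars, standard error of the edgeR fit on 3 replicates per group). NOX5, AZGP1 and BANCR stand higher in Mel92.1 (3.23, 2.55 and 2.08) than in MP41 (0.86, 1.16 and 0.71), and for SERPINA1, BST2, KRT23 and LINC00426 the bars of both lines overlap.

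EHMT2, the enzyme that UNC0642 inhibits, was at 105, 106 and 108 CPM with DMSO and 77.0, 101 and 102 CPM with UNC0642 in Mel92.1 and at 95.5, 97.2 and 101 CPM with DMSO and 92.3, 92.6 and 99.5 CPM with UNC0642 in MP41. All treated Mel92.1 libraries were below those with DMSO, replicate 1 by the most, and the MP41 groups overlapped. Its line difference was -0.14 (95% interval -0.42 to 0.14), and that of EHMT1 was -0.11 (-0.39 to 0.18). An inhibitor of the protein need not alter its transcript, so these values do not check the treatment.

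Signals that natural killer cells meet had no line difference past the threshold. The cytokine TGFB1 was at 33.5, 40.0 and 39.2 CPM with DMSO and 32.6, 34.7 and 33.1 CPM with UNC0642 in Mel92.1 and at 42.0, 38.3 and 37.4 CPM with DMSO and 38.9, 35.2 and 42.1 CPM with UNC0642 in MP41. The groups overlapped in both lines, and the line difference was -0.15 (95% interval -0.44 to 0.14). Of 26 genes of the TGF-beta pathway 0 passed by the quasi-likelihood test of edgeR (2 higher and 1 lower at an unadjusted p under 0.05). In Mel92.1 alone 1 of them passed, TGFBI, which rose from 0.0203, 0.0264 and 0.128 CPM to 2.05, 0.534 and 0.857 CPM. This rests on 1, 1 and 5 counts with DMSO and on 34, 21 and 46 with UNC0642. The line difference of TGFBI, 4.41 (SE 1.16), did not pass. MICA and MICB, stress ligands of the receptor NKG2D, had differences of 0.10 (-0.20 to 0.39) and 0.02 (-0.38 to 0.43). ULBP3 was at 0.256 to 0.966 CPM in Mel92.1 and at 0 in all MP41 libraries, so no difference is given, and ULBP2 was at 3.13 to 4.64 CPM in Mel92.1 and at 0 to 0.231 CPM in MP41. CXCL8, a chemokine of neutrophils, was at 0 to 0.596 CPM in Mel92.1 and at 54.4 to 65.3 CPM in MP41, and CXCL10 was at 0 in every Mel92.1 library. CCL15, CXCL5 and CCL27 were below the filter on low counts. Of 42 interferon-stimulated genes 0 passed by the edgeR test (4 higher and 0 lower at an unadjusted p under 0.05), and of 18 genes of MHC class I and antigen processing 0 (0 higher and 0 lower).

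Melanocyte genes had a median line difference of 0.17. Of 23, 6 rose in Mel92.1 alone and 0 passed for the line difference by the quasi-likelihood test of edgeR (7 higher and 1 lower at an unadjusted p under 0.05). TYR, the enzyme that begins melanin synthesis, went from 247, 272 and 266 CPM to 356, 378 and 368 CPM in Mel92.1 and from 1568, 1428 and 1533 CPM to 1677, 1418 and 1651 CPM in MP41. The groups overlapped in MP41 only, and the difference was 0.42 (95% interval 0.21 to 0.63, adjusted p 0.121 by the quasi-likelihood test of edgeR). S100B, a calcium-binding marker of melanocytes, was at 58.2, 63.0 and 55.6 CPM with DMSO and 32.2, 31.5 and 31.5 CPM with UNC0642 in MP41, without passing there (adjusted p 0.556 by the edgeR fit), and at 0 to 0.814 CPM in Mel92.1. Among 13 genes that tell classes of uveal melanoma apart 0 passed by the quasi-likelihood test of edgeR (2 higher and 0 lower at an unadjusted p under 0.05). ECM1, an extracellular matrix protein of the class with poor outcome, went from 4.51, 6.18 and 5.17 CPM to 7.91, 13.5 and 9.47 CPM in Mel92.1, and its difference was 1.03 (0.55 to 1.51, adjusted p 0.081). HTR2B, a serotonin receptor of that class, went from 29.3, 29.6 and 28.6 CPM to 6.46, 14.3 and 14.6 CPM in Mel92.1 and from 22.4, 20.5 and 22.1 CPM to 14.2, 12.6 and 14.6 CPM in MP41, with a difference of -0.62 (-1.26 to 0.02).

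In the other lists 0 members passed for the line difference by the quasi-likelihood test of edgeR, and the counts at an unadjusted p under 0.05, against 4.16% higher and 3.42% lower over all genes, are given with the median. Cytosolic ribosomal proteins had 12 higher and 0 lower of 82 and a median of 0.18, with 75 above 0. Cholesterol synthesis had 5 higher and 1 lower of 25 (0.04), among them the sterol oxidase MSMO1 (0.53, 95% interval 0.28 to 0.78) and INSIG1, which retains the sterol sensor (0.44, 0.22 to 0.66). Integrins, laminins and collagens had 4 higher and 7 lower of 34 (-0.13), and glycolysis and hypoxia targets 0 higher and 4 lower of 31 (-0.13). MAPK output genes had 4 higher and 0 lower of 21 (0.06). DUSP6, the feedback phosphatase of ERK, was at 35.2, 33.6 and 32.4 CPM with DMSO and 38.2, 34.4 and 38.0 CPM with UNC0642 in Mel92.1 and at 82.6, 77.0 and 84.0 CPM with DMSO and 68.0, 66.9 and 68.1 CPM with UNC0642 in MP41, apart in MP41 only. The machinery of H3K9 methylation had 1 higher and 1 lower of 28 (-0.06), the higher being MPHOSPH8, a HUSH subunit that binds trimethylated lysine 9 (0.57, 0.30 to 0.84). Replication-dependent histones had 1 higher and 0 lower of 36 (0.37), p53 targets 0 higher and 1 lower of 25 (0.02), nuclear subunits of oxidative phosphorylation 1 higher and 1 lower of 81 (0.00), ZNF genes 10 higher and 15 lower of 444 (-0.08; both counts below the share over all genes), NKG2D ligands 0 higher and 0 lower of 5 (0.10) and chemokines 1 higher and 1 lower of 12 (0.00). The 4 ribosomal RNA genes had 3 higher and 0 lower (1.64), beside the shares by library given above. Among markers of other cells, fibroblast genes had 0 higher and 1 lower of 4, epithelial genes 0 higher and 1 lower of 4, leukocyte genes 0 higher and 0 lower of 2 and endothelial genes 0 higher and 0 lower of 3.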

How the data were processed

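RNA-seq was run on 18 libraries, of which the 12 with DMSO or UNC0642 were used. The deposited values are expected counts per gene symbol that the authors made with Bowtie2 2.1.0 and RSEM 1.2.15 against hg38, per the submitters' processing notes. The study's methods name, besides Bowtie2, TopHat and Cufflinks and a mouse build for RNA-seq, but the table holds human symbols. Values that are not whole (5.85% to 12.7% per library) were rounded. Genes were filtered with filterByExpr, scaled by TMM and tested in 1 fit of 4 groups with edgeR 4.0.16 (quasi-likelihood test, Benjamini-Hochberg adjustment over 15464 genes, threshold 0.05; R 4.3.3). The standard error was taken from the fold change and the F statistic. Alternatives used DESeq2 1.42.0 and limma 3.58.1. On simulated data of 15159 genes, 157 of 200 genes changed by 1.5 on the log2 scale in the line difference were recovered, with 9 false calls. The simulated counts were drawn separately for each gene, without shifts that many genes share within a library. They therefore do not give the rate of false calls in the real libraries.

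Samples were grouped by the labels' cell line and treatment. Whether replicate numbers pair the samples was taken from the data, as the correlation of deviations from the group means between same-numbered libraries. It was 0.17, 0.40 and 0.18 in MP41, each above 0.1, and -0.16, 0.23 and -0.41 in Mel92.1, so the numbers were taken to pair the MP41 libraries only. In MP41 it was also 0.12 between DMSO 1 and UNC0642 3 and 0.17 between DMSO 3 and UNC0642 1. The limit of 0.1 therefore cannot tell how replicates 1 and 3 pair. In Mel92.1 the highest value was 0.46, between DMSO 1 and UNC0642 3. The members and lists were chosen with earlier results of these data known. Named genes were the 10 largest line differences past the threshold in each direction (at 1 CPM or more in a group). The genes the study names and up to 4 per list by lowest p were added. CHAC1, HTR2B, OLFML2A, MKI67, DES, DENND2D, S100B and DDIT4 were also named, as known from earlier results of these data. DES and DENND2D, not described above, had line differences of 1.54 and 0.24 that did not pass. Coding sequences came from GENCODE release 29, where 23899 of 26475 symbols matched by name and 703 by a synonym. Line-specific genes had a DMSO mean of at least 20 CPM in one line and at most 0.05 CPM in the other. Total counts, from 23601156 to 62941462, set the precision, and floors cover counting error only. The 6 A366 libraries entered only an alternative fit, since 4 of them carried the genes of the other line. Figures used matplotlib 3.10.9 (Python 3.11.15).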

Additional observations from a re-analysis of the deposited data

Results flagged for a closer look

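All results listed here were flagged because the effects of UNC0642 in Mel92.1 and MP41 differed by a test of the difference itself (the quasi-likelihood test of edgeR, adjusted after Benjamini and Hochberg). Groups of 3 libraries were too small for a test of single outlying samples. The line difference was higher in 49 genes and lower in 8.

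On the log2 scale, the line differences of the named genes with a higher change in Mel92.1 were 2.40 for MKI67, 2.37 for NOX5, 2.02 for PHGDH, 1.95 for ZC3H13, 1.85 for HTN1, 1.74 for LINC01366, 1.52 for ANKRD12, 1.5 for AKAP9, 1.46 for EIF5B and 1.37 for GOLGA4. The mitosis and replication genes CENPE, CENPF, SMC4 and CLSPN had 1.15, 1.17, 0.55 and 0.64. With a lower change in Mel92.1, the fitted values were -6.56 for CYBRD1 and -5.22 for BDH1, which depend on the prior count because MP41 with DMSO was at 0, and -1.20 for OLFML2A, -1.14 for DDIT4, -1.07 for CD36, -0.61 for FZD7, -0.55 for STAG3 and -0.43 for MFSD12.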

How the results depend on the processing

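All 49 higher and all 8 lower genes kept their sign under every alternative run, while their number past the threshold did not hold. For the line difference, 7 genes passed without a composition factor (5 higher and 2 lower, against 49 and 8; the median of all genes was then -0.24), 207 with DESeq2, 266 with limma voom and sample weights, 0 with all 18 libraries as labelled (336 at an unadjusted p under 0.05), and 27 with the offset for coding A share and length. In the same order Mel92.1 alone gave 80, 560, 549, 9 and 172 and MP41 alone 0, 62, 200, 0 and 1. Asking also for a 1.5-fold change gave 115 in Mel92.1. MP41 alone gave 3 without a filter on low counts and 3 when GC content and transcript length were offset. Leaving out both Mel92.1 replicate 1 libraries, chosen after seeing the data, gave 262, 467 and 60. With 1 library left out at a time the counts ran from 32 to 100, from 112 to 265 and from 0 to 16. With a replicate block within each line, 26, 104 and 0 genes passed. With a block shared by both lines, 44, 147 and 1 passed (40 of the 49 and 3 of the 8). With a block within MP41 only, where the numbers were taken to pair the libraries, 40, 121 and 1 passed. The last changed no call among the named genes beyond the 9 given above. The cause of these shifts was not tested.

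The fit of all 18 libraries includes 4 labelled A366 that carry the genes of the other line: Mel92.1 A366 replicates 2 and 3 held Mel92.1-specific genes at 0.0430% and 0.0245% of their Mel92.1 level, and MP41 A366 replicates 2 and 3 held MP41-specific genes at 0.0669% and 0.0519% of theirs. For named genes past the threshold, 422 of the alternative values stayed past it and 172 did not.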

Other observations

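Across all genes tested, the log2 changes in Mel92.1 and MP41 had a Spearman rho of 0.0729, and of 0.118 over 8423 genes at 10 CPM or more in all 4 groups. This is a description across genes, which are not independent replicates. Of the 209 genes past the threshold in Mel92.1, 132 had a change of the same sign in MP41 and 156 were not past the threshold for the line difference.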
